A study of Mus musculus with 6 samples.

Results

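The genes described here make and load the peptides that MHC class I molecules show at the cell surface. They were taken as 10 listed genes: B2m, Tap1, Tap2, Tapbp, Psmb8, Psmb9, Psmb10, Psme1, Psme2 and Nlrc5. A gene counted as measured where an array row carried its symbol alone, and the row of highest mean was used. This gave 8 measured genes of the 20255 in the data with such a row. All 8 lay above the filter on dim genes and were among the 15191 genes tested. The rows for Psme2, a subunit of the proteasome activator PA28, and Nlrc5, a transactivator of class I genes, each carried a second gene's symbol, so no value is given for either.

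RNA of mouse wound scars, taken as biopsies of the whole skin, was hybridised to Affymetrix exon arrays, which carry probes along the exons of each gene. There were 3 scars with high and 3 with low regeneration of hair follicles, and each day after wound closure (4, 6 and 9) had 1 scar of each kind. The series' design text calls the second kind scars without regenerated follicles, where the sample labels say low. All animals had a healed skin wound. The labels give no strain, sex, age or genotype. Levels and differences are in log2 units. A negative difference means a lower level in high-regeneration scars, and a fold is their level over that of low-regeneration scars. A biopsy holds many cell types, and fewer cells of a type and less RNA per cell cannot be told apart.

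Cells cut proteins in the proteasome, and interferon replaces its constitutive catalytic subunits with Psmb8, Psmb9 and Psmb10 to form the immunoproteasome. The peptides are pumped into the endoplasmic reticulum by the transporter of Tap1 and Tap2, and tapasin (Tapbp) holds the transporter next to class I heavy chains waiting for a peptide. B2m is the light chain of every classical class I molecule, and the finished complex is read by CD8 T cells. In skin, hair follicles that are growing are known for low class I levels, one of the features called immune privilege.

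All 8 measured genes were lower in high-regeneration than in low-regeneration scars at each of the 3 days. Their median difference was -0.41 log2 units, beside -0.0028 over all genes tested. Differences averaged over the 3 day pairs lay between -0.69 for Tap1 and -0.25 for Psme1. Being lower in all 3 pairs was seen in 18.3% of genes tested. For 7 of the 8 genes, every high-regeneration sample lay below every low-regeneration sample, which held for 6.18% of genes tested. None of the 8 passed limma at an adjusted p under 0.05, with adjusted p between 0.242 and 0.518. In that comparison 0.0527% of genes passed in either direction and 0% passed as lower. At an unadjusted p under 0.05, 7 of the 8 were lower in the same limma fit, as were 5.17% of genes tested. Without the day 9 pair 4 of the 8 were (Tap1, Tap2, Psmb8 and Psmb9). The share of all genes without that pair was not counted. These genes share regulators and samples, so their counts are not independent of each other.

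**Figure D1:**
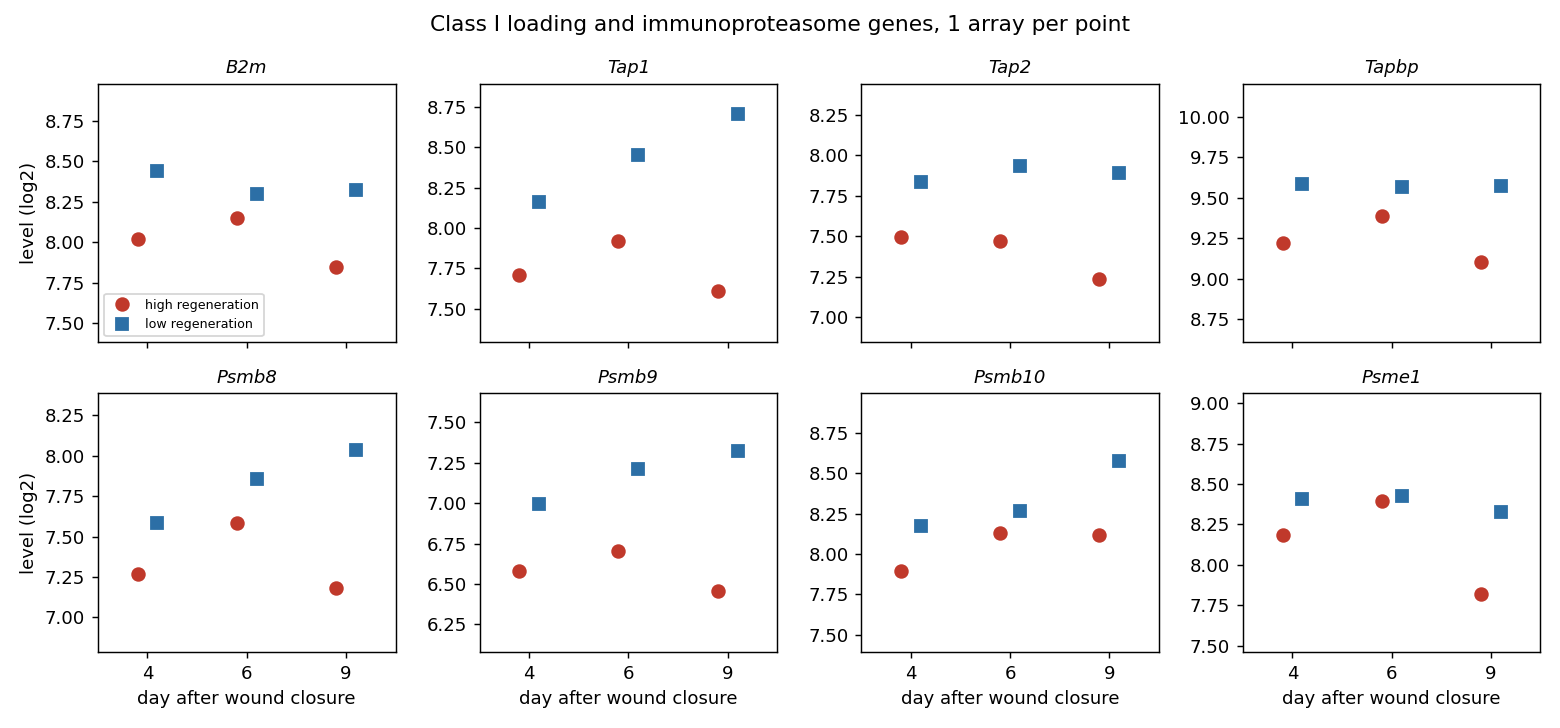
Log2 level of each measured gene (vertical axis, of equal height in log2 units in every panel) in the single array of each day after wound closure, with high-regeneration scars as red circles to the left of low-regeneration scars as blue squares. At every day the red circle lies below the blue square, by 1.09 log2 units for Tap1 at day 9 and by only 0.034 for Psme1 at day 6.

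The widest difference was that of Tap1, the first chain of the peptide transporter. Tap1 had levels of 7.71, 7.92 and 7.61 at days 4, 6 and 9 in high-regeneration samples, against 8.16, 8.45 and 8.70 on the same days in low-regeneration samples. The groups did not overlap, and the low-regeneration sample of day 9 was the highest of all 6. Tap1 averaged 7.75 ± 0.16 in high-regeneration and 8.44 ± 0.27 in low-regeneration scars (SD, n = 3 each), a difference of -0.69 ± 0.35 (SD of 3 pairs, 0.619-fold, limma adjusted p = 0.318). Tap2, the second chain, had 7.49, 7.47 and 7.24 in high-regeneration samples, against 7.83, 7.93 and 7.89 in low-regeneration samples. The low-regeneration samples were close together, and the gap of 0.34 between the groups was wider than for any other of the 8 genes. The Tap2 difference was -0.48 ± 0.16 (SD of 3 pairs, 0.715-fold, limma adjusted p = 0.242).

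Psmb9, the immunoproteasome subunit that replaces Psmb6, lies next to Tap1 and is read from the opposite strand. Its levels were 6.58, 6.70 and 6.46 in high-regeneration samples, against 6.99, 7.21 and 7.32 in low-regeneration samples. As for Tap1, the groups did not overlap and the day 9 pair was furthest apart. The Psmb9 difference was -0.60 ± 0.24 (SD of 3 pairs, 0.662-fold, limma adjusted p = 0.254). Over the 6 samples Tap1 and Psmb9 had a Pearson correlation of 0.991, the highest of the 28 pairs of measured genes. The points share arrays and the high and low groups, so this is a description.

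The 225 bases between the starts of Tap1 and Psmb9 are shown because the pair shares them as upstream sequence (RefSeq, GRCm38.p6, chr17:34187331-34187555, plus strand, read towards Tap1). Capitals mark a CCAAT box, the sequence CCAAT bound by the factor NF-Y, and it is the same site whether counted for Tap1 or for Psmb9.
Tap1 and Psmb9: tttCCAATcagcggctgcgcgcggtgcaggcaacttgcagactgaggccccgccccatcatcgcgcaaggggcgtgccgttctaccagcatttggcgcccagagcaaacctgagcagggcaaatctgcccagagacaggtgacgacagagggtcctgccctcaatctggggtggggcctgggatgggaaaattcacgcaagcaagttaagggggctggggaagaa
No match to the interferon-stimulated response element core GAAANNGAAA, the gamma-activated site core TTCNNNGAA or the kappaB site GGGANTTTCC was in these letters on either strand. A match is only a description of the letters, and its absence says nothing about the factors that bind there.

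Psmb8, which takes the place of Psmb5 in the immunoproteasome, is encoded beside Tap1 and Tap2. Its levels were 7.27, 7.58 and 7.18 in high-regeneration samples, against 7.58, 7.85 and 8.03 in low-regeneration samples. The groups only touched: the high-regeneration sample of day 6 and the low-regeneration sample of day 4 were 0.00019 log2 units apart. The Psmb8 difference was -0.48 ± 0.32 (SD of 3 pairs, 0.718-fold, limma adjusted p = 0.401), with the day 9 pair (-0.85) far wider than those of days 4 (-0.31) and 6 (-0.27).

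The 250 bases before the start of Psmb8 are shown because they hold a gamma-activated site core, a motif known from genes that respond to interferon gamma (RefSeq, GRCm38.p6, chr17:34197945-34198194, plus strand). Capitals mark that match, whose first base lies 97 bases before the start.
Psmb8: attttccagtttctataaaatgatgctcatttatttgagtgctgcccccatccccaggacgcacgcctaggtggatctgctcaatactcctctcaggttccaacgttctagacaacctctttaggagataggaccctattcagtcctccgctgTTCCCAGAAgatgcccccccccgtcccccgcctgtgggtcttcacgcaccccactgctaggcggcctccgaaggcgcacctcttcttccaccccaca

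Psmb10, the replacement of Psmb7, is encoded on chromosome 8. It had 7.89, 8.13 and 8.12 in high-regeneration samples, against 8.18, 8.27 and 8.58 in low-regeneration samples. The groups were separated by 0.047 log2 units, and the difference was -0.29 ± 0.16 (SD of 3 pairs, 0.816-fold, limma adjusted p = 0.412). Psme1, the alpha subunit of the activator PA28 that opens the proteasome, differed least. Its levels were 8.19, 8.39 and 7.82 in high-regeneration samples, against 8.41, 8.43 and 8.33 in low-regeneration samples. Psme1 was the 1 gene of the 8 whose groups overlapped, since the day 6 high-regeneration sample exceeded the day 9 low-regeneration sample. Its difference was -0.25 ± 0.24 (SD of 3 pairs, 0.839-fold, limma adjusted p = 0.518).

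B2m, the light chain, had 8.02, 8.15 and 7.85 in high-regeneration samples, against 8.44, 8.30 and 8.32 in low-regeneration samples. The groups were 0.15 apart and the difference was -0.35 ± 0.17 (SD of 3 pairs, 0.785-fold, limma adjusted p = 0.372). Tapbp, the loading chaperone tapasin, had 9.22, 9.39 and 9.10 in high-regeneration samples, against 9.58, 9.57 and 9.57 in low-regeneration samples. The spread of Tapbp was 0.14 in high-regeneration and 0.0067 in low-regeneration scars (SD, n = 3 each), and its difference was -0.34 ± 0.15 (SD of 3 pairs, 0.791-fold, limma adjusted p = 0.361). B2m and Tapbp ran alike over the samples (Pearson correlation 0.975 over 6 samples), with their narrowest pair at day 6.

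The 250 bases before the start of B2m are shown because they hold 3 of the 4 motifs searched (RefSeq, GRCm38.p6, chr2:122147437-122147686, plus strand). Capitals mark, in order, an interferon-stimulated response element core 139 bases before the start, a kappaB site at 126 and a CCAAT box at 53, the last 2 on the reverse strand.
B2m: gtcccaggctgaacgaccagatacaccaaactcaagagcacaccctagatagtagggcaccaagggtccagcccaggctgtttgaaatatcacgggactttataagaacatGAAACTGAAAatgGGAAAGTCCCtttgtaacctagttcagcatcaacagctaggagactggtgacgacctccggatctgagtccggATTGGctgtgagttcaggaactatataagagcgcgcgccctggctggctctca
Promoter windows of 300 bases, 250 before and 50 from the start, were in the RefSeq table for 8 of the 10 listed genes, all but Tap2 and Nlrc5. GAAANNGAAA was in B2m and Psme1 (there as TTTCGCTTTC, starting at base 10 of the transcript), and in 3.44% of the 32851 windows of the table. TTCNNNGAA was in Psmb8 alone of the 8, and in 8.3% of all windows. GGGANTTTCC was in B2m alone of the 8 and in 0.411% of all windows, and CCAAT was in B2m, Tap1, Tapbp and Psmb9 and in 37.4%. Both strands were searched, and no motif overlapped another in the sequences shown.

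**Figure D2:**
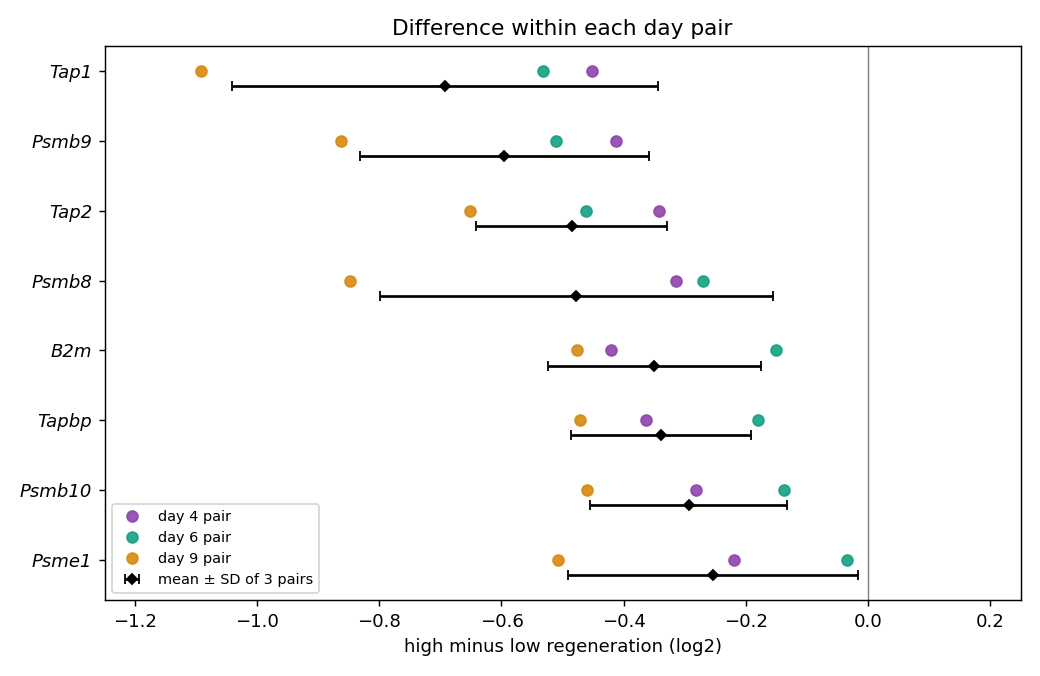
Difference in log2 level, high minus low regeneration (horizontal axis), for each measured gene, ordered by its mean. Coloured points are the day 4, 6 and 9 pairs and the black diamond and bar below them are the mean ± SD of the 3 pairs. Every point lies left of 0, and the day 9 pair lies furthest left for all 8 genes.

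The day 9 pair held the widest difference for all 8 genes, with a median of -0.58, beside -0.35 at day 4 and -0.22 at day 6. The day 6 difference was the narrowest of the 3 for B2m, Tapbp, Psmb8, Psmb10 and Psme1, while for Tap1, Tap2 and Psmb9 it was the day 4 difference. Without the day 9 pair the median over the genes was -0.29, without the day 4 pair it was -0.44, and without the day 6 pair -0.47. Under each of these, every one of the 8 remained lower in high-regeneration scars and none passed in limma.

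In the day 9 pair the animals also differed in the genes that mark sex. Xist, the RNA that silences an X chromosome in females, was at 5.82, 5.75 and 5.82 in high-regeneration samples, against 5.79, 7.30 and 12.77 in low-regeneration samples. The Y-linked gene Eif2s3y was at 4.36 in the low-regeneration sample of day 9 and between 7.10 and 7.26 in the others. Regeneration and sex cannot be told apart in that pair. At day 6 Xist was also higher in the low-regeneration sample (7.30 against 5.75), while Eif2s3y was at 7.26 there and at 7.10 in the high-regeneration sample. The cause of that Xist level was not tested.

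At day 4 the high-regeneration sample stood apart at 2 genes of the MHC region on chromosome 17, where Tap1, Tap2, Tapbp, Psmb8 and Psmb9 also lie. H2-Ea, a class II chain that some inbred mouse haplotypes do not express, was at 6.59 there and between 4.09 and 4.43 elsewhere. H2-Ob was at 6.16 there and between 7.68 and 8.07 elsewhere. The 5 members of that region had a median difference of -0.48, and the 3 on other chromosomes (B2m, Psmb10 and Psme1) had -0.29. At day 4 alone the medians were -0.36 and -0.28. They were -0.46 and -0.14 at day 6, and -0.85 and -0.48 at day 9. The part of sequence differences under the probes was not tested.

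Other components of class I presentation were read from lists. Of the class I heavy chain list, 5 of 20 genes had a row of their own, and H2-K1 and H2-D1 were not among them. All 5 had negative differences with a median of -0.38, 0 of 5 passed in limma, and 4 were lower at an unadjusted p under 0.05, beside 5.17% of genes tested. H2-Q10, a nonclassical heavy chain, had 9.39, 9.95 and 9.54 in high-regeneration samples, against 10.74, 10.54 and 11.00 in low-regeneration samples. Its groups did not overlap, and its difference was -1.13 ± 0.48 (SD of 3 pairs, limma adjusted p = 0.23). Class I heavy chain genes are near-identical over long stretches, and how far the H2-Q10 row takes up RNA of other heavy chains was not tested. H2-M3, which presents formylated peptides, differed by -0.38 ± 0.14 and H2-T24 by -0.49 ± 0.31 (SD of 3 pairs).

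Among 5 partners in loading the median was -0.11 and 0 of 5 passed. Erap1, the aminopeptidase that trims peptides in the endoplasmic reticulum, had 7.21, 7.28 and 7.26 in high-regeneration samples, against 7.36, 7.58 and 7.52 in low-regeneration samples. Its groups did not overlap and its difference was -0.24 ± 0.08 (SD of 3 pairs, limma adjusted p = 0.399). Tapbpl, a peptide editor related to tapasin, differed by -0.18 ± 0.22 and the chaperone Calr by -0.11 ± 0.17.

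The constitutive proteasome lay near 0. Psmb5, Psmb6 and Psmb7, the subunits that Psmb8, Psmb9 and Psmb10 replace, differed by -0.099 ± 0.05, 0.068 ± 0.16 and -0.021 ± 0.04 (SD of 3 pairs). Their mean level was 9.34, 9.24 and 9.31 in high-regeneration samples, against 9.32, 9.29 and 9.33 in low-regeneration samples. These ranges overlapped, whereas the mean level of the 8 members was 7.80, 7.97 and 7.67 in high-regeneration samples, against 8.15, 8.25 and 8.34 in low-regeneration samples. The median was -0.016 over 9 other subunits of the 20S core and 0.018 over 16 subunits of the 19S regulator. It was -0.034 over 8 further activators and assembly factors, among them Psmf1 (-0.14 ± 0.06, SD of 3 pairs). No gene of these proteasome lists passed in limma, and 0 were at an unadjusted p under 0.05. Whether the difference of a replacing subunit departs from that of its counterpart was not tested.

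**Figure D3:**
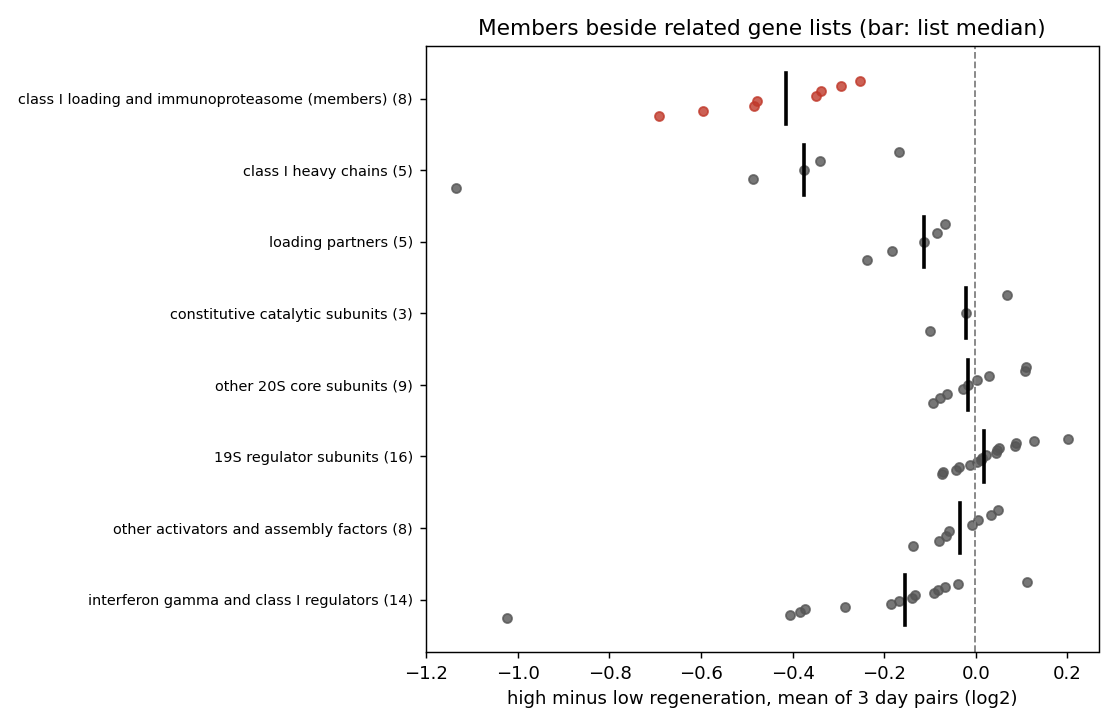
Mean high minus low difference over the 3 day pairs (horizontal axis, log2) for each measured gene of each list, with the members in red, other lists in grey, a black bar at each list's median and a dashed line at the median of all genes tested. The 8 members lie between -0.69 and -0.25, while the genes of the constitutive core and the 19S regulator scatter around 0.

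Of the regulators of this pathway, 14 of 17 had a row of their own, with a median of -0.15. None passed in limma, and 4 were lower at an unadjusted p under 0.05, beside 5.17% of genes tested. Stat2, which carries the interferon signal to the nucleus with Irf9, had 7.70, 8.16 and 8.35 in high-regeneration samples, against 8.78, 8.83 and 9.68 in low-regeneration samples. Its difference was -1.02 ± 0.34 and that of Irf9 was -0.38 ± 0.10 (SD of 3 pairs, limma adjusted p = 0.173 and 0.255). Irf2, an interferon regulatory factor that can bind class I promoters, differed by -0.29 ± 0.07 (SD of 3 pairs). These 3 regulators, picked for the lowest unadjusted p of their list in limma, did not overlap between groups. Every high-regeneration sample lay below every low-regeneration sample for 5 of the 14, and for 6.18% of genes tested.

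Interferon gamma itself, Ifng, had 5.79, 5.75 and 5.56 in high-regeneration samples, against 5.46, 5.77 and 6.43 in low-regeneration samples. Its groups overlapped, and its difference was -0.19 ± 0.62 (SD of 3 pairs, limma adjusted p = 0.825). Irf1, a direct target of interferon gamma that activates the Tap1 and Psmb9 genes, had 6.82, 6.95 and 6.72 in high-regeneration samples, against 6.91, 7.22 and 7.58 in low-regeneration samples. Its groups overlapped by a little, and its difference was -0.41 ± 0.40 (SD of 3 pairs, limma adjusted p = 0.5). Ciita had no row of its own and is not analysed here. Rfx5, Rfxap and Rfxank, which form the RFX complex on class I and II promoters, differed by -0.040, -0.090 and -0.082.

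The lists of T cell, natural killer and cytotoxic cell, and all-leukocyte markers had negative medians too, and none of their genes passed in limma. At an unadjusted p under 0.05 in limma, 2 of 6 tested T cell markers were lower, beside 5.17% of genes tested. So were 3 of 5 natural killer and cytotoxic cell markers and 1 of 3 markers of all leukocytes. Every high-regeneration sample lay below every low-regeneration sample for 2, 3 and 2 genes of these lists in turn. That held for 6.18% of genes tested. For the 3 markers of all leukocytes the median was -0.21, nearer to 0 than the -0.41 of the 8 genes. Of these, Coro1a differed by -0.21 ± 0.16 and Laptm5 by -0.094 ± 0.24 (SD of 3 pairs). Laptm5 was higher in the high-regeneration sample at day 6, by 0.18. Ptprc, the CD45 antigen of all leukocytes, had 7.83, 8.31 and 8.03 in high-regeneration samples, against 8.37, 8.39 and 8.66 in low-regeneration samples, a difference of -0.42 ± 0.29 (SD of 3 pairs, limma adjusted p = 0.417). Of 8 T cell markers 6 were tested, and these were all lower on average, with a median of -0.42, and their mean level ran from 6.39 to 6.86 in high-regeneration and from 6.93 to 7.19 in low-regeneration samples. For the 5 tested of 6 natural killer and cytotoxic cell markers the median was -0.44 and the mean level 5.89 to 6.28 in high-regeneration and 6.26 to 6.77 in low-regeneration samples. A further T cell marker, Cd3d, lay below the filter on dim genes and went the other way, with 5.24, 5.55 and 5.63 in high-regeneration samples, against 4.83, 5.31 and 4.38 in low-regeneration samples. Cd3g, a chain of the T cell receptor complex, differed by -0.82 ± 0.53, Gzmb, a granule protease, by -1.13 ± 0.74 and Klrd1, a natural killer receptor, by -0.44 ± 0.16 (SD of 3 pairs).

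Lists of other cell types had medians nearer to 0 over the 3 pairs, though dendritic and Langerhans cells came close to the all-leukocyte median of -0.21. Over the markers tested, the medians were -0.043 for 4 macrophage markers, -0.19 for 5 of dendritic and Langerhans cells, -0.024 for 2 of B cells and -0.025 for 2 of neutrophils. They were -0.013 for 5 keratinocyte markers, -0.025 for 5 fibroblast markers and -0.092 for 4 endothelial markers. Keratinocyte markers had a mean level of 11.73 to 11.92 in high-regeneration and 11.76 to 11.87 in low-regeneration samples, and fibroblast markers 10.98 to 11.15 in high-regeneration and 11.05 to 11.16 in low-regeneration samples, so the defining genes of skin were present on every array. Within days some of these lists lay far from 0. The neutrophil medians were 0.67, -0.81 and 0.060 at days 4, 6 and 9, and those of dendritic and Langerhans cells -0.50, 0.012 and 0.033. At day 4 the dendritic cell markers Cd209a and Xcr1 differed by -1.21 and -1.02. No marker on any of these lists passed in limma, and the arrays give no level of 0. The part of leukocyte content in the differences of the 8 genes was not tested.

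The change from day 4 to day 9 went in different directions among the genes. Averaged over the groups, the slope per day was 0.061 ± 0.02 log2 units for Psmb10, 0.040 ± 0.04 for Tap1, 0.030 ± 0.04 for Psmb8 and 0.017 ± 0.03 for Psmb9 (SE, limma). It was -0.050 ± 0.03 for Psme1, -0.031 ± 0.02 for B2m, -0.022 ± 0.02 for Tap2 and -0.015 ± 0.02 for Tapbp. None passed (lowest adjusted p = 0.26, for Psmb10), as 0% of all genes did, and at an unadjusted p under 0.05 Psmb10 alone of the 8 was found in limma, beside 16.2% of genes tested. Without the low-regeneration sample of day 9 it was 0 of 8, and without the high-regeneration sample of day 9 it was 4 (Tap1, Psmb8, Psmb9 and Psmb10). The shares of all genes under these omissions were not counted, so neither number can be set beside the 16.2%. The slopes of Psmb8 and Psmb9 changed sign without the low-regeneration sample of day 9 (-0.0045 and -0.0098 per day) and without that of day 4 (-0.0039 and -0.012). The slope of Tap1 did so without that of day 9 (-0.0026). Day and date of collection coincide in this design and cannot be told apart.

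Taken by group, the step from day 4 to day 9 was negative for 7 of 8 genes in high-regeneration scars, with a median of -0.12. In low-regeneration scars it was negative for 3 of 8 and positive for 5 of 8, with a median of 0.19. Of the 15191 genes tested, the step was negative for 7908 in high-regeneration and for 8209 in low-regeneration scars. Tap1 stepped by -0.097 in high-regeneration and by 0.54 in low-regeneration scars. In high-regeneration scars the steps of Psmb8, Psmb9 and Tap2 were -0.086, -0.12 and -0.26. In low-regeneration scars those of the same genes were 0.45, 0.33 and 0.054. Of the 8 genes, Tap1, Tap2, Psmb8 and Psmb9 thus stepped down in high-regeneration and up in low-regeneration scars, as did 17.1% of genes tested. Psmb10 was higher at day 9 in both groups, by 0.22 in high-regeneration and 0.40 in low-regeneration scars. B2m, Tapbp and Psme1 were lower at day 9 in both.

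**Figure D4:**
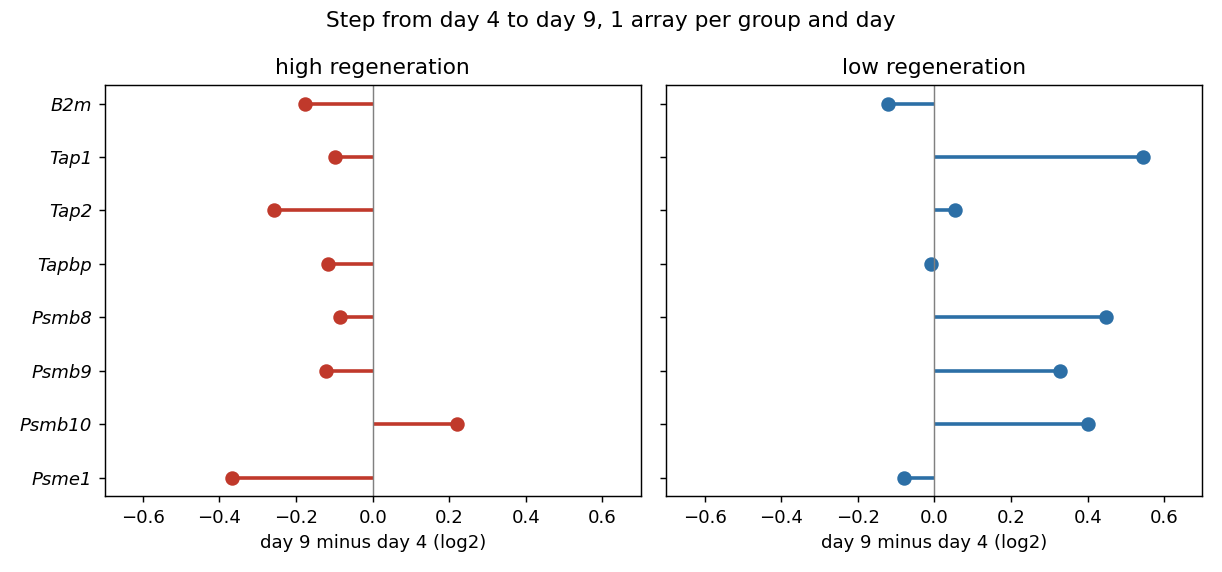
Day 9 minus day 4 level (horizontal axis, log2) of each measured gene in high-regeneration scars (left, red) and low-regeneration scars (right, blue), each from 1 array per day. In high-regeneration scars 7 of 8 genes lie left of 0, while in low-regeneration scars Tap1, Psmb8, Psmb9 and Psmb10 lie between 0.33 and 0.54.

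The difference in slope between the groups, tested as an interaction in limma, was negative for 8 of 8 genes, as it was for 50.3% of genes tested. None passed, and 0% of all genes did. Tap1 had the lowest unadjusted p of the 8 in limma (0.0457, difference in slope -0.13 ± 0.05 per day, SE, adjusted p = 0.989), and 3.96% of genes tested were under 0.05. The low-regeneration sample of day 9, which carries the Xist level described above, enters every low-regeneration step and each difference in slope.

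Among themselves, the 8 genes correlated over the 6 samples with Pearson values from 0.316 (Psmb10 with Psme1) to 0.991, with a median of 0.868 over 28 pairs. The difference between the groups is part of every such value. Genes outside the list were ranked by their correlation with the mean of the 8 over the 6 samples, among the 792 genes that ranged over at least 1 log2 unit. The 5 most alike were Cxcr6 (0.981), a chemokine receptor of T and natural killer T cells, Ms4a4b (0.97), a membrane protein of T cells, Slfn2 (0.951), H2-Q10 (0.949) and Akr1c18 (0.939). Cxcr6 had 6.11, 6.64 and 6.10 in high-regeneration samples, against 7.12, 7.11 and 7.37 in low-regeneration samples. Its difference was -0.92 ± 0.41 (SD of 3 pairs, limma adjusted p = 0.254). The mean of the 8 separates the groups, so genes ranked by likeness to it tend to do so too. The Cxcr6 values are therefore only a description.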

How the data were processed

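The authors deposited 1 log2 value per array and row, a unit read from the range of the deposited values (2.03 to 14.58). Affymetrix Expression Console and PLIER are named, per the submitters' processing notes, with no version or role. The build, background correction and filters behind the values: not given in the sources used here. Medians of the arrays lay between 6.04 and 6.10, so no further normalization was applied. Of 53145 rows, 25466 had 1 gene symbol in the platform annotation, 2299 several and 25380 none; 24868 matched RefSeq by gene identifier. The row of highest mean stood for each gene, and the lowest 25% of genes by mean were left out. limma 3.58.1 in R 4.3.3 (lmFit, eBayes, two-sided, Benjamini-Hochberg over 15191 genes, threshold 0.05) compared high with low with day as a block, tested the slope per day with group as covariate, and tested their interaction, with 2, 3 and 2 residual degrees of freedom. Day is a block because the series description pairs the scars by date; same-day deviations from the group means correlated at 0.5, 0.112 and 0.56 across genes at days 4, 6 and 9. The labels do not say whether samples come from separate animals, though the sex genes show that more than 1 animal was used. With 1 array per group and day, a high minus low p-value rests on how the difference varied between days. The slope and interaction p-values rest on departures from straight lines over the days. Such spread may be partly technical. Precision is limited by how few arrays there are. The members and lists were chosen with earlier results of these data known, and so were the motifs with the sequences in view. Genes named from a list were among its 3 of lowest unadjusted p or were named in any case. Not all of those 3 are named for every list, and for some lists none is. The 5 genes most like the members' mean were named too. Cd3d, Cd2, Prf1, Rfx5, Rfxap, Rfxank and Eif2s3y were added after their values were seen.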

Additional observations from a re-analysis of the deposited data

How the results depend on the processing

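With quantile normalization, without the filter on dim genes, with the lowest 50% of genes left out, with the mean of all rows of a gene, with a trended robust prior, without the day term and without each day pair, 71 of 71 values of the measured genes for high minus low stayed negative (-0.812 to -0.127) and none passed (adjusted p from 0.168 to 0.93). Psmb9 was not tested with the lowest 50% left out. Without the replicate block, that is without the day term, 6 of all genes passed and 0 of the 8. The number of all genes called was 8 as reported, 0 after quantile normalization and 0 without the filter. It ran from 0 to 35 when a day pair was left out (0 without day 4, 35 without day 6, 0 without day 9), and the median of the 8 from -0.47 to -0.29. For the slope, where 0 genes passed, 7 did without the group covariate and, with a sample left out, from 0 to 130 (130 without the high-regeneration sample of day 6). Of 95 slope values of the measured genes, 7 changed sign, all on leaving out 1 sample. Over these omissions the slope per day ran from -0.0026 to 0.11 for Tap1, -0.043 to 0.0061 for Tap2, -0.026 to 0.0103 for Tapbp, -0.0045 to 0.097 for Psmb8 and -0.012 to 0.063 for Psmb9. Without the low-regeneration sample of day 9 these were Tap1 (-0.0026), Psmb8 (-0.0045) and Psmb9 (-0.0098). Without that of day 4 they were Psmb8 (-0.0039) and Psmb9 (-0.012), and without the high-regeneration sample of day 9 Tap2 (0.0061) and Tapbp (0.0103). The cause was not tested. The median slope of the measured genes was 0.0010, and -0.015 with the lowest 50% of genes left out; it ran from -0.018 to 0.037 with a sample left out. At an unadjusted p under 0.05, high minus low held for 7 of the 8 genes, for 6 without the day term or without the day 4 pair, for 8 without the day 6 pair and for 4 without the day 9 pair. For the slope that count was 1, and 0 without the group covariate, and with a sample left out it ran from 0 to 4. The shares of all genes at that threshold were not counted under these alternatives. The unadjusted call of Tap1 for the difference in slope was lost with quantile normalization.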
